A study of Homo sapiens with 4 samples.

Results

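The genes described here are those whose name in the deposited table is RNF or TRIM followed by digits and at most 1 letter, with TPM summed over the transcripts of each gene. There were 100 of them among 11213 gene names, 61 RNF and 39 TRIM, and they held 262 of 32551 transcripts. The rule uses no measured value. RNA was sequenced from 4 libraries of K562, an established human cell line from chronic myelogenous leukaemia that carries the BCR-ABL1 fusion. In 2 libraries K562 had received lentivirus with a control hairpin (shControl, genotype WT), and in 2 with a hairpin against PHF8 (shPHF8, genotype PHF8 knockdown). Lentivirus was given with polybrene and puromycin removed cells without it, in both groups. PHF8 removes methyl groups from lysines of histones H3 and H4 that are linked to silencing. Whether shPHF8 1 and 2 are replicates or separate hairpins is unclear from the labels, which name no separate cultures either, and the p-values therefore cover only how far these 4 samples spread. TPM is an abundance per transcript length, brought to an equal total in each library.

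Ubiquitin is attached to proteins by a relay of an activating enzyme (E1), a conjugating enzyme (E2) and a ligase (E3) that picks the substrate. Ligases of the RING type hold the E2 and the substrate together through a small zinc-binding RING fold. RNF genes are named for that fold alone and encode proteins of many architectures, among them membrane-anchored ligases and the RING-between-RING ligases that carry ubiquitin on their own cysteine. TRIM proteins share a tripartite layout of RING, B-box and coiled coil and are known for antiviral restriction and signalling, with a branch of bromodomain corepressors led by TRIM28. A few TRIM proteins, such as TRIM14, TRIM44 and TRIM66, lack a RING fold, so the names do not all stand for ligases.

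The level of PHF8 was 25.9 and 22.5 TPM in shControl and 6.06 and 6.42 TPM in shPHF8, the direction its labels give. Its p after Benjamini-Hochberg adjustment in limma was 0.0643, and no gene of the table passed 0.05. Markers of blood lineages also differed between the groups. The summed level of 17 listed erythroid markers was 11613 and 12529 TPM in shControl and 18593 and 17754 TPM in shPHF8. Globins such as HBG1, HBG2, HBE1 and HBA1 made up most of that sum, and 3 of the 17 markers had lower means in shPHF8: GATA1 at 339 and 343 TPM against 311 and 307 TPM, GYPB and EPOR. For 9 listed granulocyte and monocyte markers the sum was 211 and 246 TPM against 123 and 114 TPM, for 3 lymphocyte markers 239.8 and 204 TPM against 107 and 100.4 TPM, for 4 megakaryocyte markers 22.9 and 27.3 TPM against 49.99 and 52.3 TPM, and for 2 stromal and endothelial markers 9.88 and 13.0 TPM against 3.42 and 2.52 TPM. Single genes carried most of the difference in the last 3 sums, PTPRC for lymphocytes, TUBB1 for megakaryocytes and COL1A2 for stroma, while COL1A1 had a slightly higher mean in shPHF8. PTPRC is not restricted to lymphocytes, and it was at 209 and 170 TPM in shControl against 91.2 and 89.4 TPM in shPHF8. The lymphocyte marker CD3D was also expressed and lower, at 29.6 and 31.5 TPM in shControl against 14.9 and 10.96 TPM in shPHF8. Some other listed markers stayed under 1 TPM in every library or had no row. They included MPO, ELANE and CD14 for myeloid cells, CD3E, CD79A and MS4A1 for lymphocytes, and PF4 and PPBP for megakaryocytes. The part of these shifts in the RNF and TRIM values was not tested, and in bulk RNA fewer cells of a type and less RNA per cell cannot be told apart.

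The promoters of 4 genes show the kind of sequence found before these genes: RNF4 and TRIM6, the RNF and the TRIM gene whose lower values had the smallest p, RNF146, the RNF gene whose higher values had the smallest p, and TRIM21, an interferon-linked gene whose level was much the same in both groups. Each runs 5′ to 3′ along the gene from 250 bases before to 50 bases after its RefSeq start, in GRCh38.p14, which is another build than that of the files. Capitals mark an interferon-stimulated response element (GAAA, any 2 bases, GAAA), a GATA core (GATAA), an E-box (CACGTG) or an ETS core (CGGAAG), each searched on both strands. Adjoining capitals may belong to overlapping matches.
RNF4, chr4:2468856-2469155, plus strand: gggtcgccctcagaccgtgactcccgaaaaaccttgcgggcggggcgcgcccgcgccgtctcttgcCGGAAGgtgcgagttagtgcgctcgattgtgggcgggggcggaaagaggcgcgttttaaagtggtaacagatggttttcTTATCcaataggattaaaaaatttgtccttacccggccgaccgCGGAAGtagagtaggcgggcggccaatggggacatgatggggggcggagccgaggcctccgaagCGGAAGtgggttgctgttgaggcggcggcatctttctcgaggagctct
RNF146, chr6:127266432-127266731, plus strand: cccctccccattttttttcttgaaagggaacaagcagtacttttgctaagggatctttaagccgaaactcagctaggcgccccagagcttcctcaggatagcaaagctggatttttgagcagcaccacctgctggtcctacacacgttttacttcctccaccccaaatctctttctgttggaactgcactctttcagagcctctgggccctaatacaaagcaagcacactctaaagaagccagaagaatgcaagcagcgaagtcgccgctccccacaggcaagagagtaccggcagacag
TRIM6, chr11:5596387-5596686, plus strand: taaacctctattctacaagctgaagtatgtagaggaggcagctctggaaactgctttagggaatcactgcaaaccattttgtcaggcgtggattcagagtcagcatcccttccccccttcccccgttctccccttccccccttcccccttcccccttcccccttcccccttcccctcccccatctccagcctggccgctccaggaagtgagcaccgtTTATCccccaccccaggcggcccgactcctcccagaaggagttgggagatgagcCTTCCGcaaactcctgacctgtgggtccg
TRIM21, chr11:4393653-4393952, minus strand: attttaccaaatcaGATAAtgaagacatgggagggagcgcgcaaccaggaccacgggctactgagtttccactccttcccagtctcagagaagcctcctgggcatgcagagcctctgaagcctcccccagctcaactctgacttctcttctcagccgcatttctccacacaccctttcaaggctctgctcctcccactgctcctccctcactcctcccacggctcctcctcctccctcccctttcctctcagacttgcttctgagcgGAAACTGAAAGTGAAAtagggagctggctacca

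RNF4 carried 31 CpG dinucleotides, 3 ETS cores and 1 GATA core, while RNF146, TRIM6 and TRIM21 carried 7, 8 and 6 CpG. In TRIM21 a pair of overlapping interferon-stimulated response elements stood within the 50 bases after the start, and a GATA core far before it. RNF146 held none of these letters in this window, which says nothing about the factors that act on it. A promoter was found for 82 of the 100 genes, 52 RNF and 30 TRIM. The response element was found in 6 of 30 TRIM promoters (TRIM5, TRIM14, TRIM16, TRIM21, TRIM26 and TRIM44), or 20.0%, and in 1 of 52 RNF promoters (RNF31), or 1.92%, against 3.65% of 27305 promoters. An ETS core was found in 19 RNF promoters, or 36.5%, and in 4 TRIM promoters, or 13.3%, against 19.9% of all. A GATA core was found in 13.5% of the RNF, 20.0% of the TRIM and 23.2% of all promoters, and an E-box in 1.92%, 6.67% and 7.43%. The median number of CpG dinucleotides was 26.5 in RNF, 17.5 in TRIM and 14 in all promoters. The set of all promoters was not limited to genes measured in these libraries, whereas every member was measured, so these shares and medians compare unlike sets. These are descriptions of the sequence, and the RefSeq start need not be the start used in these cells.

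Both families were expressed at moderate levels. RNF genes summed to 2441 and 2448 TPM in the shControl libraries and to 2401 and 2372 TPM in the shPHF8 libraries, so the knockdown sum was 97.6% of the control sum and the groups did not overlap. TRIM genes summed to 1348 and 1308 TPM in shControl and 1322 and 1331 TPM in shPHF8, with a knockdown sum of 99.9% and overlapping groups. No p is given for these sums, because an exact two-sided permutation test of 2 libraries against 2 cannot fall below 0.333. The families made up 0.242% and 0.133% of all TPM. The level was spread more evenly over the RNF than over the TRIM genes: RNF5 held 11.3% of the RNF sum and the highest 5 genes 29.0%, whereas TRIM28 held 24.7% of the TRIM sum and the highest 5 genes 51.9%. The median gene had a mean of 33.0 TPM among 61 RNF and 16.004 TPM among 39 TRIM. Only 7 RNF genes had a mean under 10 TPM, against 15 TRIM genes, of which TRIM3, TRIM10 and TRIM15 had a mean under 1 TPM and were not tested. TRIM10, known from terminal erythroid differentiation, was at 0.63 and 0.48 TPM in shControl and 0.78 and 0.55 TPM in shPHF8. RefSeq names 84 RNF and 73 TRIM protein-coding genes by the same pattern, of which 60 and 39 had rows in the table; RNF219 has a row under a name that RefSeq no longer uses.

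**Figure D1:**
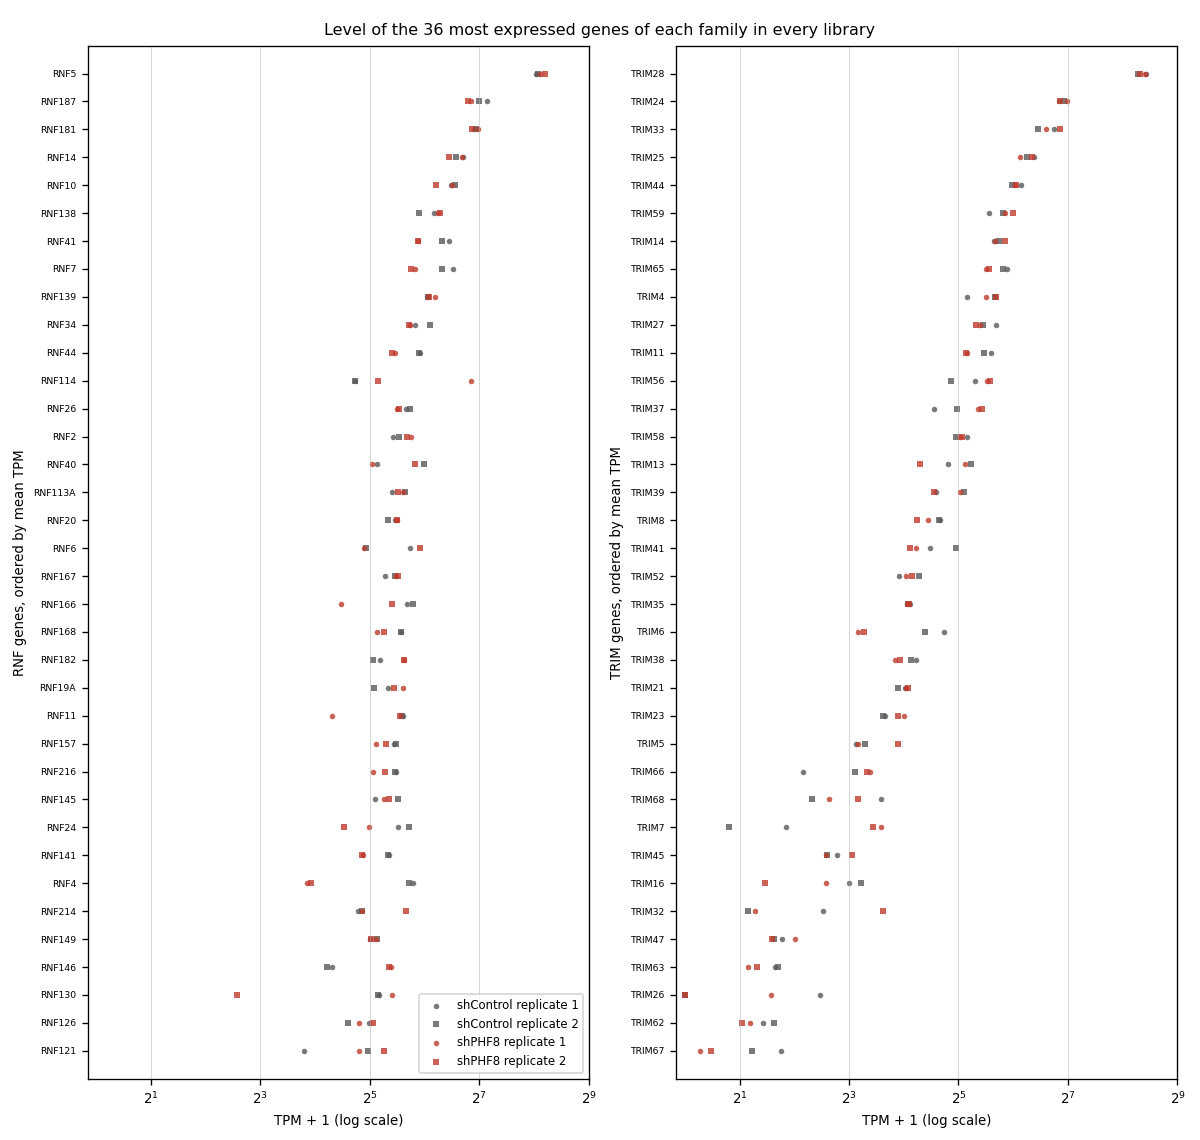
Each row is 1 of the 36 genes with the highest mean of its family, with RNF genes on the left and TRIM genes on the right in order of mean level; the horizontal axis is TPM + 1 on a log scale, grey points are the 2 shControl libraries and red points the 2 shPHF8 libraries. RNF5 and TRIM28 stand at the top of their families, red and grey points overlap in 12 of the 36 RNF rows and 18 of the 36 TRIM rows, and RNF4, RNF146 and TRIM6 are among the rows where they lie apart. Over all genes tested, the groups lay apart in 55.3%.

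After adjustment over all 10972 genes tested, 0 of the 97 RNF and TRIM genes tested passed limma with Benjamini-Hochberg adjustment at 0.05, as did 0% of all genes. A looser reading at an unadjusted limma p under 0.05 took 18 of the 97, or 18.6%, against 22.0% of all genes. Of the 61 RNF genes 4 were higher (6.56%) and 8 lower (13.1%) in the knockdown libraries, and of the 36 TRIM genes tested 2 were higher (5.56%) and 4 lower (11.1%). Among all genes 9.9% were higher and 12.1% lower by this reading. The shares of lower genes thus lay close to the background in both families, and those of higher genes lay below it. The median log2 difference, shPHF8 minus shControl on log2(TPM + 1), was -0.00065 for RNF, -0.017 for TRIM and -0.018 for all genes tested. Libraries of the groups did not overlap in 18 RNF genes that were higher and 20 that were lower, 62.3% in all, and in 7 and 11 of the 36 TRIM genes, against 26.0% higher and 29.3% lower, 55.3% together, of all genes. These counts depended on single libraries. RNF genes higher were 2 without shPHF8 replicate 2, TRIM genes higher were 1 without shPHF8 replicate 1 or without shPHF8 replicate 2 and 3 without either control, and TRIM genes lower were 2 without shControl replicate 1 or shPHF8 replicate 1 and 1 without shPHF8 replicate 2. Of the 18 genes, 6 kept an unadjusted limma p under 0.05 in all 12 alternatives tried: RNF4, RNF146, RNF7, RNF41, RNF44 and TRIM7. In what follows, a gene is called higher or lower by its values, and no single gene passed the adjusted threshold.

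**Figure D2:**
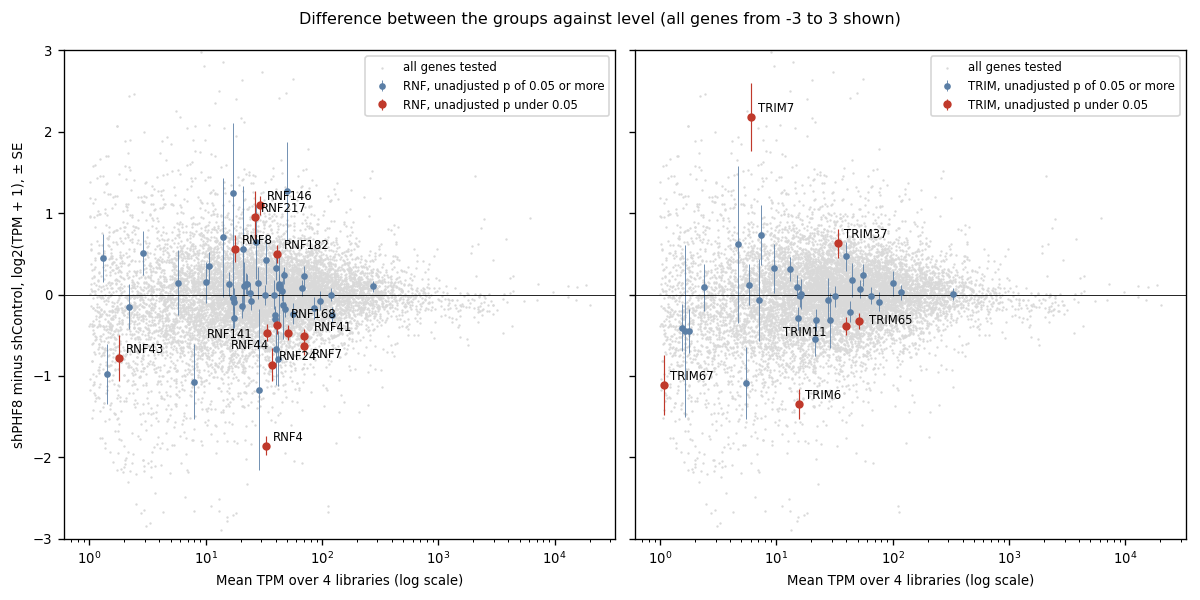
The horizontal axis is mean TPM over the 4 libraries on a log scale and the vertical axis the log2 difference shPHF8 minus shControl on log2(TPM + 1), with bars of 1 SE; RNF genes are on the left, TRIM genes on the right, and grey points are all genes tested that lie within the axis. Red and named points are the 12 RNF and 6 TRIM genes with an unadjusted limma p under 0.05, most of which lie within the grey cloud, with RNF4 at -1.86 and TRIM7 at 2.18 near its edge.

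RNF4, a ligase that recognises proteins carrying SUMO chains, among them PML, had the smallest p of both families. It was at 54.3 and 51.4 TPM in the shControl libraries and at 13.5 and 14.2 TPM in the shPHF8 libraries. Both knockdown libraries thus lay far below both controls, at 26.2% of the control mean. The log2 difference was -1.86 ± 0.12 (SE), and its 95% confidence interval was -2.18 to -1.54 (Benjamini-Hochberg adjusted p by limma, 0.0554). Under quantile normalization RNF4 passed (Benjamini-Hochberg adjusted p by limma, 0.0485). Nearly all of the difference sat in 1 transcript: RNF4-001 was at 44.9 and 42.7 TPM in shControl and 5.89 and 7.13 TPM in shPHF8, while RNF4-002 was at 9.08 and 8.61 TPM against 6.78 and 6.41 TPM.

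RNF146, a ligase that binds poly(ADP-ribosyl)ated substrates such as axin, stood on the other side. It was at 18.9 and 17.7 TPM in shControl and at 40.9 and 39.7 TPM in shPHF8. The knockdown mean was 2.2-fold the control mean, and the libraries of each group lay close together. The log2 difference was 1.10 ± 0.12 (SE), and its 95% confidence interval was 0.78 to 1.41 (Benjamini-Hochberg adjusted p by limma, 0.0691). RNF146-008 carried most of it, at 8.13 and 5.87 TPM against 28.6 and 18.6 TPM. The 5 other transcripts of RNF146 were each at 10.6 TPM or less in every library.

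TRIM6, which builds free ubiquitin chains in interferon signalling, was at 25.7 and 20.0 TPM in shControl and at 7.96 and 8.70 TPM in shPHF8. Its knockdown libraries were at 36.5% of the control mean, with a log2 difference of -1.34 ± 0.19 (SE) (Benjamini-Hochberg adjusted p by limma, 0.0784). The transcripts behind it differed between the 2 controls. TRIM6-004 was at 15.5 TPM in shControl replicate 1 and listed at 0 in the other 3 libraries, and TRIM6-002 was at 11.6 TPM in shControl replicate 2 and listed at 0 in the other 3. TRIM6-001 was found in every library, at 6.93 and 7.46 TPM against 5.50 and 3.76 TPM. A further transcript, TRIM6-003, was the highest of the gene in shPHF8 replicate 2. The low unadjusted p was lost when only the leading transcript of each gene was used. TRIM7, a glycogenin-binding ligase, had the largest log2 difference of the 97 genes, but at low levels: 2.60 and 0.76 TPM in shControl and 10.9 and 9.90 TPM in shPHF8, a difference of 2.18 ± 0.41 (SE) (Benjamini-Hochberg adjusted p by limma, 0.105).

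The other RNF genes with the smallest p and lower values were better expressed and differed less. RNF7, the RING subunit of cullin-5 ligases, was at 90.6 and 79.2 TPM in shControl and 55.9 and 52.6 TPM in shPHF8. RNF41, a ligase of receptor tyrosine kinases and cytokine receptors, was at 86.3 and 79.2 TPM against 57.7 and 57.7 TPM. RNF44 was at 59.3 and 58.5 TPM against 43.2 and 41.4 TPM, and RNF141 at 39.7 and 39.1 TPM against 28.3 and 28.0 TPM. All 4, which were chosen by their small p, had both knockdown libraries below both controls, as did 29.3% of all genes. Their knockdown means were from 63.9% to 71.8% of the control, with limma Benjamini-Hochberg adjusted p from 0.102 to 0.126. RNF24, a membrane-anchored protein, was at 44.6 and 51.7 TPM against 30.6 and 22.1 TPM, and RNF43, which removes Wnt receptors from the cell surface, at 2.30 and 2.78 TPM against 1.16 and 0.95 TPM; they complete the 8 lower RNF genes with RNF168, given below.

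On the higher side stood RNF182, at 35.4 and 32.3 TPM in shControl and 48.1 and 48.4 TPM in shPHF8 (Benjamini-Hochberg adjusted p by limma, 0.121). The 2 controls of RNF182 had different leading transcripts. Its low unadjusted p was lost when only the leading transcript of each gene was used. RNF217, a RING-between-RING ligase of the iron exporter ferroportin, was at 23.5 and 12.7 TPM against 31.5 and 37.5 TPM. The 2 controls of RNF217 were far apart, and its low p was lost without shControl replicate 2 or without either knockdown library. RNF19A, another RING-between-RING ligase, was at 39.1 and 32.9 TPM against 48.0 and 42.6 TPM (Benjamini-Hochberg adjusted p by limma, 0.283). Of the 7 RING-between-RING genes tested, only RNF217 had an unadjusted limma p under 0.05, or 14.3%, against 22.0% of all genes. RNF31, the catalytic subunit of the complex that builds linear ubiquitin chains, was at 18.7 and 20.0 TPM against 15.7 and 15.7 TPM, and its partner RBCK1 at 73.4 and 68.5 TPM against 50.001 and 46.5 TPM (Benjamini-Hochberg adjusted p by limma, 0.308 and 0.103).

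Of 10 ligases of histones and of DNA break signalling, 2 were higher (20.0%, against 9.9% of all genes) and 2 lower (20.0%, against 12.1%) at an unadjusted limma p under 0.05. RNF8, which starts ubiquitin signalling at DNA breaks, was at 12.6 and 15.8 TPM in shControl and 22.2 and 20.5 TPM in shPHF8. RNF168, which acts after RNF8 on histone H2A, lay on the opposite side, at 46.5 and 46.6 TPM against 34.1 and 37.3 TPM. The knockdown means of this pair were 151% and 76.7% of the control. TRIM37, known from histone H2A ubiquitylation and centriole control, was at 22.5 and 30.4 TPM against 39.8 and 42.1 TPM. RNF4 is the other lower gene of this group. With leaving out of single libraries, RNF8 kept its low p in 1 of 4 cases, RNF168 in 0 of 4 and TRIM37 in 2 of 4.

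The remaining genes of the group did not reach an unadjusted limma p under 0.05. RNF2, the H2A ligase of Polycomb complexes, was at 42.1 and 45.2 TPM in shControl and 52.9 and 50.2 TPM in shPHF8, higher in both knockdown libraries (Benjamini-Hochberg adjusted p by limma, 0.285). RNF20, which ubiquitylates H2B, was at 42.9 and 39.2 TPM against 44.4 and 44.2 TPM. Its partner RNF40 split by replicate number and not by group, at 33.9 and 62.6 TPM against 31.7 and 55.8 TPM. In both replicates 1 the transcripts RNF40-011 and RNF40-009 were listed at 0, whereas in both replicates 2 RNF40-011 was at 22.6 and 26.2 TPM. RNF169 was at 23.0 and 20.5 TPM against 23.9 and 23.9 TPM, and RNF138, which acts at resected breaks, at 70.9 and 58.8 TPM against 75.2 and 76.3 TPM. RNF111, a SUMO-targeted ligase of the TGF-beta pathway, also split by number, at 22.1 and 12.0 TPM against 23.4 and 10.7 TPM.

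Of the 4 bromodomain corepressors, TRIM28, TRIM24 and TRIM33 had overlapping groups and TRIM66 did not. TRIM28, the corepressor recruited by KRAB zinc finger proteins, was at 342 and 311 TPM in shControl and 337 and 319 TPM in shPHF8. Its log2 difference was 0.01 ± 0.08 (SE), and the 95% confidence interval from -0.21 to 0.22 bounds a difference in either direction (Benjamini-Hochberg adjusted p by limma, 0.969). TRIM24 was at 114 and 121 TPM against 126 and 115 TPM, and TRIM33, which is required for erythroid transcription elongation, at 106 and 86.6 TPM against 96.3 and 115 TPM. TRIM66 was lower in level, at 3.44 and 7.60 TPM against 9.45 and 9.07 TPM, and its interval from -0.29 to 1.75 leaves it undecided. All 4 intervals included 0, and 0 of the 4 genes had an unadjusted limma p under 0.05, against 22.0% of all genes. Of 11 partners of the KRAB corepressor complex tested, 0 did; the methyltransferase SETDB1 was at 49.8 and 45.7 TPM against 63.5 and 54.6 TPM, and MPHOSPH8 at 57.2 and 56.6 TPM against 50.3 and 53.5 TPM.

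The table held 12 interferon-linked members, of which 11 were tested, and 0 were higher and 2 lower at an unadjusted limma p under 0.05, or 18.2%, near the 22.0% of all genes. The 2 were TRIM6 and TRIM65, which ubiquitylates the RNA sensor MDA5 and was at 58.4 and 55.4 TPM in shControl and 44.2 and 46.3 TPM in shPHF8. The low p of TRIM65 was lost without any 1 of the 4 libraries. TRIM25, the ligase of the RNA sensor RIG-I, was at 81.9 and 75.7 TPM against 68.6 and 79.9 TPM, and TRIM56 at 38.6 and 28.2 TPM against 45.0 and 47.0 TPM (Benjamini-Hochberg adjusted p by limma, 0.699 and 0.249). TRIM21, the cytosolic antibody receptor, was at 15.3 and 13.9 TPM against 15.4 and 15.8 TPM, and TRIM14 at 49.5 and 52.2 TPM against 49.8 and 56.9 TPM. These are 2 of the 6 TRIM genes with an interferon-stimulated response element in the promoter window, and none of the 6 had an unadjusted limma p under 0.05. Among 25 interferon-stimulated genes outside the families, 3 were higher and 2 lower by the same reading, or 20.0%, with a median log2 difference of 0.01. TAP1, an antigen peptide transporter, was at 7.65 and 7.43 TPM against 3.99 and 3.83 TPM, and IFITM3 at 222 and 228 TPM against 159 and 180.2 TPM.

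Among the remaining members with the highest levels, RNF5, a ligase of endoplasmic reticulum quality control, was at 262 and 267 TPM in shControl and 273 and 293 TPM in shPHF8. RNF5 has near-identical pseudogene sequence, so its value is uncertain. RNF187 was at 141 and 126 TPM against 115 and 109 TPM, with a 95% confidence interval of the log2 difference that just reached 0 (Benjamini-Hochberg adjusted p by limma, 0.230). RNF181 was at 119 and 122 TPM against 125 and 116 TPM, RNF14 at 103 and 94.6 TPM against 102 and 86.2 TPM, and RNF10, which ubiquitylates stalled ribosomes, at 88.7 and 92.8 TPM against 89.6 and 72.7 TPM. TRIM44 was at 69.2 and 61.8 TPM against 64.6 and 64.9 TPM. TRIM58, which degrades dynein in late erythroblasts, was at 34.8 and 30.01 TPM against 31.5 and 32.3 TPM, in the same libraries in which the erythroid marker sum was higher. The interval of its log2 difference ran from -0.37 to 0.33.

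The last TRIM genes named by the rule were TRIM11, at 47.2 and 43.3 TPM in shControl and 34.6 and 34.0 TPM in shPHF8, and TRIM67, a neuronal gene near the limit of the test, at 2.37 and 1.33 TPM against 0.21 and 0.39 TPM. TRIM41 was at 21.3 and 30.1 TPM against 17.7 and 16.3 TPM, and TRIM23, which carries an ARF-like GTPase domain, at 11.6 and 11.3 TPM against 15.1 and 13.9 TPM. Adjusted p by limma with Benjamini-Hochberg was 0.164, 0.2003, 0.239 and 0.304 for these 4. Of the 20 membrane-anchored members tested, 0 were higher, against 9.9% of all genes, and 2 lower (10.0%, against 12.1%) at an unadjusted limma p under 0.05, RNF24 and RNF43. In the striated muscle group only TRIM63 had a row, at 2.13 and 2.27 TPM against 1.22 and 1.48 TPM, and of the NHL-repeat group only TRIM32 was tested.

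Within the ubiquitin pathway, other RING ligases had more genes on the higher side. Of 40 tested outside the families, 11 were higher (27.5%) and 1 lower (2.5%) at an unadjusted limma p under 0.05, against 9.9% and 12.1% of all genes. Their median log2 difference was 0.14, and 0 passed after adjustment. The list was written by hand with earlier results of these data known. It had no test of its own, so its shares only describe the genes listed. SIAH2, a hypoxia-linked ligase, was at 47.7 and 47.5 TPM in shControl and 74.7 and 73.3 TPM in shPHF8 (Benjamini-Hochberg adjusted p by limma, 0.0788), and RBCK1 was the gene on the lower side. Of 29 E2 enzymes tested 4 were higher (13.8%, against 9.9% of all genes) and 3 lower (10.3%, against 12.1%). The 4 higher were UBE2J1, UBE2V2, UBE2L6 and UBE2A. UBE2J1 was at 60.8 and 58.3 TPM in shControl against 78.7 and 79.1 TPM in shPHF8. The E2 genes with the smallest p were on the lower side. UBE2D2, an E2 used by many RING ligases, was at 149 and 147 TPM against 112 and 118 TPM, and UBE2O, a hybrid of E2 and ligase active in reticulocytes, at 41.0 and 39.4 TPM against 23.4 and 27.0 TPM. Among 6 genes for ubiquitin itself and E1 enzymes 1 was lower (16.7%), the ubiquitin and ribosomal protein fusion RPS27A, at 2265 and 2219 TPM against 1993 and 1706 TPM. The E1 enzyme UBA1 was at 231 and 229.7 TPM against 240.3 and 280.3 TPM.

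The gene level could stay much the same while the leading transcript differed between the groups. RNF170, an endoplasmic reticulum ligase of the IP3 receptor, summed to 19.1 and 17.4 TPM against 19.2 and 15.0 TPM. In it RNF170-001 was at 2.76 and 2.10 TPM against 16.7 and 9.21 TPM, and RNF170-202 at 9.31 and 8.29 TPM against 0.070 and 1.52 TPM. In RNF24 the gene sum itself was lower in shPHF8, as given above, and RNF24-001 was at 24.5 and 24.2 TPM against 12.9 and 12.4 TPM.

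**Figure D3:**
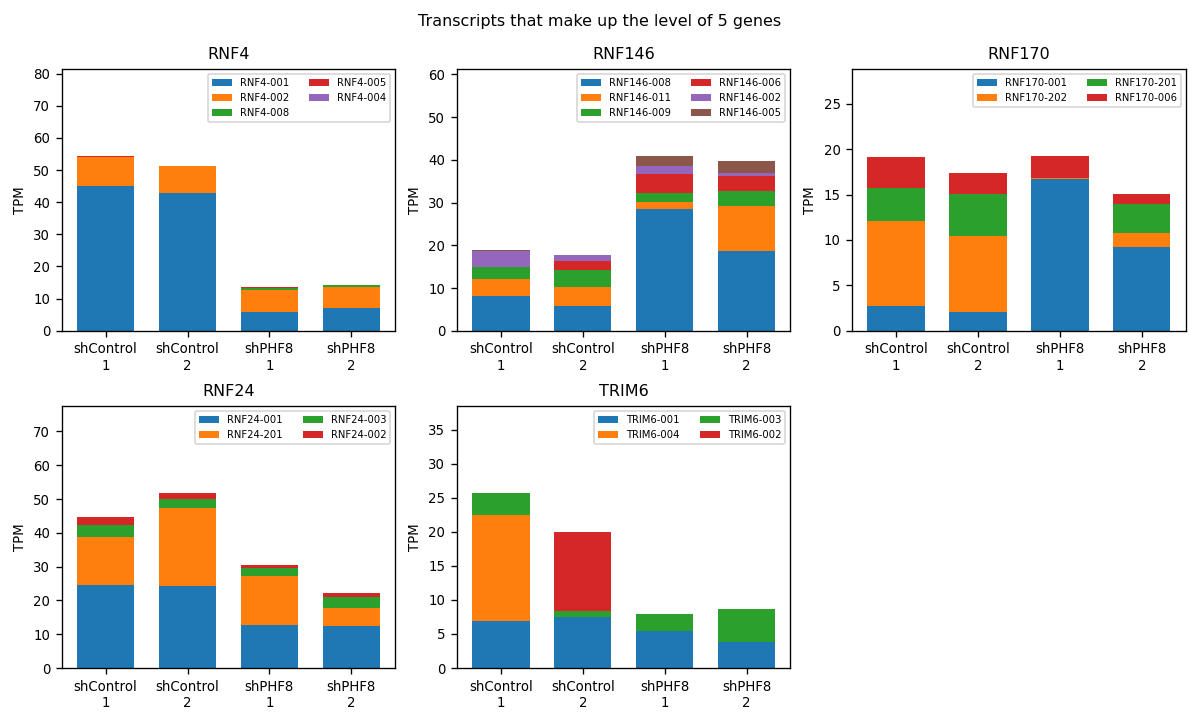
Each bar is 1 library and its height is TPM, stacked by transcript, for RNF4, RNF146, RNF170, RNF24 and TRIM6. The RNF4 bars differ by the blue segment RNF4-001, the RNF170 controls are mostly orange, green and red where RNF170-001, in blue, leads in both knockdown libraries, and the TRIM6 controls are built from different transcripts.

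Over all 30266 transcripts tested, 0 of the 244 RNF and TRIM transcripts tested passed limma with Benjamini-Hochberg adjustment, against 0.0033% of all, which is a single transcript of EEF1A1. By an unadjusted limma p under 0.05, 8 were higher and 8 lower among 166 RNF transcripts (9.64%), and 1 was higher and 0 lower among 78 TRIM transcripts (1.28%), against 4.91% higher, 5.38% lower and 10.3% together of all transcripts. RNF4-001 had an adjusted p of 0.103 (limma, Benjamini-Hochberg). Of 66 members with more than 1 transcript, 39 had the same leading transcript in all 4 libraries (59.1%, against 58.3% of 7739 such genes). In RNF170 both controls shared 1 leading transcript and both knockdown libraries another, a pattern found in 3.7% of all such genes. The 2 controls differed from each other in leading transcript in 15 of the 66 (22.7%) and the 2 knockdown libraries in 16 (24.2%), against 24.5% of all such genes in each group.

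The spread within a group was wide for some members. Of the 97 genes 7 differed by more than 1 on the log2 scale between the 2 controls, against 5.93% of all genes, and 10 between the 2 knockdown libraries, against 5.48%. These were 15 genes in all, and 12 of them were among the 66 members with more than 1 transcript (18.2%, against 8.58% of all such genes), 3 among the 31 with 1 transcript (9.68%, against 13.4%). The genes named next were chosen after their values were seen, except RNF114, which the rule had named. RNF114, a ligase linked to interferon signalling, was at 25.5 and 25.5 TPM in shControl and 115 and 34.5 TPM in shPHF8. RNF130 was at 35.1 and 34.4 TPM against 41.6 and 4.94 TPM, and RNF11, with 1 transcript, at 48.0 and 47.2 TPM against 18.8 and 46.0 TPM. RNF185, an endoplasmic reticulum ligase, had its outlying value in a control, at 3.16 and 21.8 TPM against 22.9 and 21.3 TPM. For these genes 1 library set the group mean, and a comparison of the means says little.

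**Figure D4:**
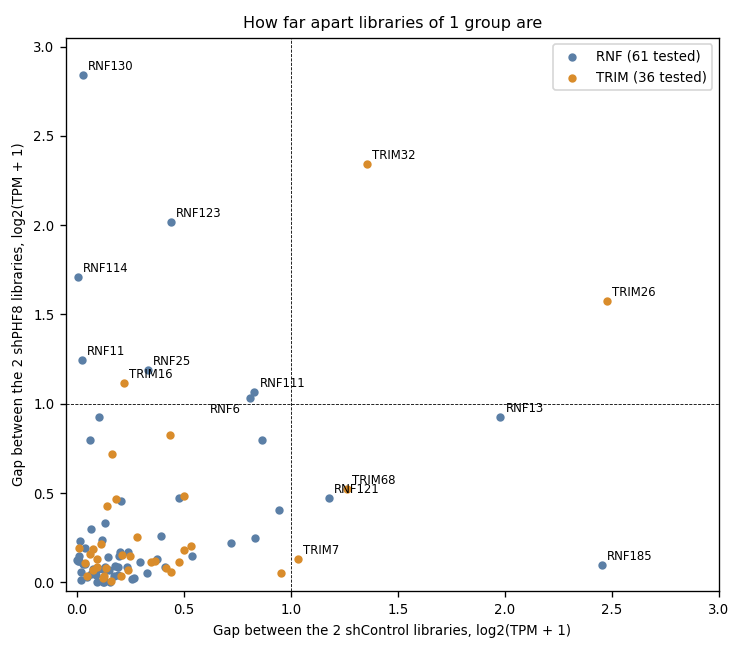
Each point is 1 of the 97 genes tested, with the gap between the 2 shControl libraries on the horizontal axis and the gap between the 2 shPHF8 libraries on the vertical axis, both on log2(TPM + 1), blue for RNF and orange for TRIM. Dashed lines mark a gap of 1, and 15 named genes lie beyond one or both of them, TRIM26 and TRIM32 beyond both.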

How the data were processed

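Abundances per transcript came as TPM in 1 table deposited by the authors, whose headers give each library a TPM column; each column sums to 1000000. A further set of 4 deposited columns is described here as signal, is an exact multiple of TPM within a library, and was not used. Per the submitters' processing notes, HISAT2 2.0.4, StringTie 1.2.3 and build hg19 were used; the annotation and strandedness used are not given in these sources. TPM keep no depth, so no counting error can be given, and sums depend on how reads shared by isoforms, overlapping genes or near-identical genes were divided.

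Values of transcripts with the same gene name were added up. Genes and, separately, transcripts with a mean of at least 1 TPM were compared on log2(TPM + 1), a scale that understates changes of low genes, with limma 3.58.1 (empirical Bayes with trend, two-sided) in R 4.3.3 over all 4 libraries, adjusted after Benjamini and Hochberg and read at 0.05. There were 2 residual degrees of freedom, to which the gene prior brought 2.16. The fit was first tested on simulated data. Figures used Python 3.11.15 and matplotlib 3.10.9. Promoters were taken from RefSeq, GRCh38.p14.

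The members and gene lists were chosen with earlier results of these data known. Genes were named by rule: per family the 5 highest, the 5 with the smallest p in each direction, all tested corepressors, erythroid TRIM and histone or DNA break ligases, 4 interferon-linked members, and 2 per other pathway list; of transcripts, 3 in each direction. Others named were chosen after their values were seen. Alternatives covered the pseudocount, the minimum, scaling, the trend, a replicate block, each library left out, and the leading transcript only. The values of 1 member named by the rule are not reported here.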

Additional observations from a re-analysis of the deposited data

How the results depend on the processing

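Depth is unknown, and with 2 libraries a group precision is limited to the spread between them. Leaving out any 1 library makes its group a lone sample, assumed to vary like the other group. No RNF or TRIM gene passed limma with Benjamini-Hochberg adjustment in any alternative except RNF4 under quantile normalization (1 gene; log2 difference -1.84, adjusted p = 0.0485), where 37 of all genes passed; with the leading transcript only, 21 of all genes passed and none of them was RNF or TRIM. The cause of each shift below was not tested.

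Of all transcripts, 1 passed; 4 did with a mean-TPM minimum of 5 or quantile normalization, and 0 with no minimum, no trend, the replicate block or any 1 library left out. Same-numbered libraries did not deviate together (correlation of deviations -0.029). With the replicate block RNF genes higher at an unadjusted limma p under 0.05 became 2 and TRIM genes lower 2; no RNF or TRIM gene was called with or without it. Leaving out libraries gave 2 to 5 RNF genes higher, 6 to 9 lower, 1 to 3 TRIM genes higher and 1 to 3 lower; 1 to 4 TRIM transcripts higher and 1 to 3 lower. With the leading transcript only, TRIM genes higher were 1 and lower 1. RNF transcripts higher were 5 and TRIM transcripts lower 1 with a minimum of 5, and TRIM transcripts lower 2 with no minimum. The RNF median ran from -0.054 to 0.038 with single libraries left out, and the RNF sum's log2 difference of -0.035 was -0.019 with median-of-ratios scaling and -0.052 without RNF5.

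Values near 0 changed sign. With each library left out in turn, the log2 difference ran from -0.054 to 0.046 for RNF181, from -0.19 to 0.045 for RNF14, from -0.061 to 0.075 for TRIM28, from -0.036 to 0.097 for TRIM24, from -0.005 to 0.28 for TRIM33, from -0.20 to 0.021 for TRIM25, from -0.094 to 0.066 for TRIM44, from -0.13 to 0.084 for TRIM58, from -0.56 to 0.30 for RNF40 and from -0.57 to 0.49 for RNF111. Median-of-ratios scaling gave 0.012 for RNF181 and 0.0021 for TRIM44. The leading transcript alone gave 0.018 for RNF181, -0.021 for TRIM24, 0.064 for RNF111 and -0.10 for SETDB1.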
